A study of Danio rerio with 12 samples.

Results

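The genes described here encode the enzymes that place or remove methyl groups on histones and DNA in the zebrafish embryo, together with the histone deacetylases. They were taken by symbol: every Ensembl gene ID whose symbol starts with kdm, kmt, setd, hdac, prmt, ezh, dnmt, suv39h or ehmt, or is tet1, tet2 or tet3. The tables held 72 such IDs, and 64 of them reached an RPKM (reads corrected for gene length and sequencing depth, so that levels of different genes can be compared) of at least 1 in at least 1 table. These 64 genes, which carry 60 different symbols, stand among 17053 genes that met the same minimum, of 33737 IDs in all. They comprise 6 DNA methyltransferases, 1 methyltransferase for H3K27 (lysine 27 of histone H3), 5 for H3K9, 18 other SET-domain or KMT genes, 17 lysine demethylases, 8 arginine methyltransferases and 9 deacetylases. The deacetylases act on acetyl and not methyl groups, and some SETD and PRMT enzymes mainly modify proteins other than histones. Without the deacetylases 55 genes remain.

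Whole embryos were collected at 2, 4 and 6 hours after fertilization (hpf, hours post fertilization), and their polyadenylated RNA was sequenced. Control embryos were wild type (ddx3xb+/+) and mutant embryos were homozygous for a mutation (ddx3xb-/-) of this gene for an RNA helicase of the DEAD-box family. Each of the 6 groups had 2 samples, named as biological replicates, and was deposited as 1 table with 1 RPKM value per gene. All values below are therefore the authors' group values, with no standard deviation and no test, and differences have no replicate check. No source used here gives the genotype of the mothers, the number of embryos per library or the kind of mutation.

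At 2 hpf a zebrafish embryo lives on RNA that the mother laid down in the egg. Its own genome is being switched on by 4 hpf, egg RNAs are cleared, and at 6 hpf gastrulation begins. DNMT1 copies DNA methylation onto the new strand after replication, DNMT3 enzymes methylate DNA anew, and TET enzymes oxidize the methyl group. On histones, methylation of H3K4 and H3K36 is known from active genes, methylation of H3K27 from Polycomb repression and methylation of H3K9 from heterochromatin. KDM enzymes remove these marks.

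Differences are given as log2(RPKM + 1), mutant minus control or later minus earlier, a scale that understates changes of low genes, and a gene was counted as higher or lower at a difference of at least 1. The verbs rose and fell are used for such genes only. Symbols in capitals come from a name table that uses the human form, which leaves out the zebrafish paralog suffix, so IDs are given where 2 genes share a symbol. Reads of near-identical paralogs could be split between them by the counting, and strand use in the counting is not stated. Whole embryos were measured as polyadenylated RNA. Fewer cells, less RNA per cell and shorter poly(A) tails therefore cannot be told apart.

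The labels were checked once for all groups. ddx3xb (ENSDARG00000005774) was at an RPKM of 325, 318 and 194 in controls at 2, 4 and 6 hpf and at 0.70, 18.8 and 48.8 in mutants. Depth, recovered only relative to each other from the steps between low values, differed by 1.93 times between the deepest and the shallowest library. Egg RNAs such as BTG4 and buc summed to an RPKM of 1727, 1536 and 68.5 in controls and 1480, 1412 and 568 in mutants over 6 genes. At 6 hpf 5 of these 6 were higher in mutants (18.3% of all genes), and 5 of 6 gastrula genes were lower (8.91%). The gastrula genes summed to 453 for the controls and 95.3 for the mutants. Of 7 first zygotic genes 3 were higher in mutants at 6 hpf and none lower, with a sum of 504 against 353 in controls. At 2 hpf 2 of these 7 were higher and none lower (4.14% of all genes were higher). At 4 hpf 5 of 7 first zygotic genes were lower in mutants, as were 3 of 4 enveloping layer genes and 1 of 4 yolk syncytial genes (6.31% of all genes). Of the 6 gastrula genes 1 was higher and 1 lower at 4 hpf, with a median difference of 0.09, and eve1 was at 0 in mutants. None of 3 later tissue markers (ELAVL3, MYOD1, hbae3) reached RPKM 1.

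**Figure D1:**
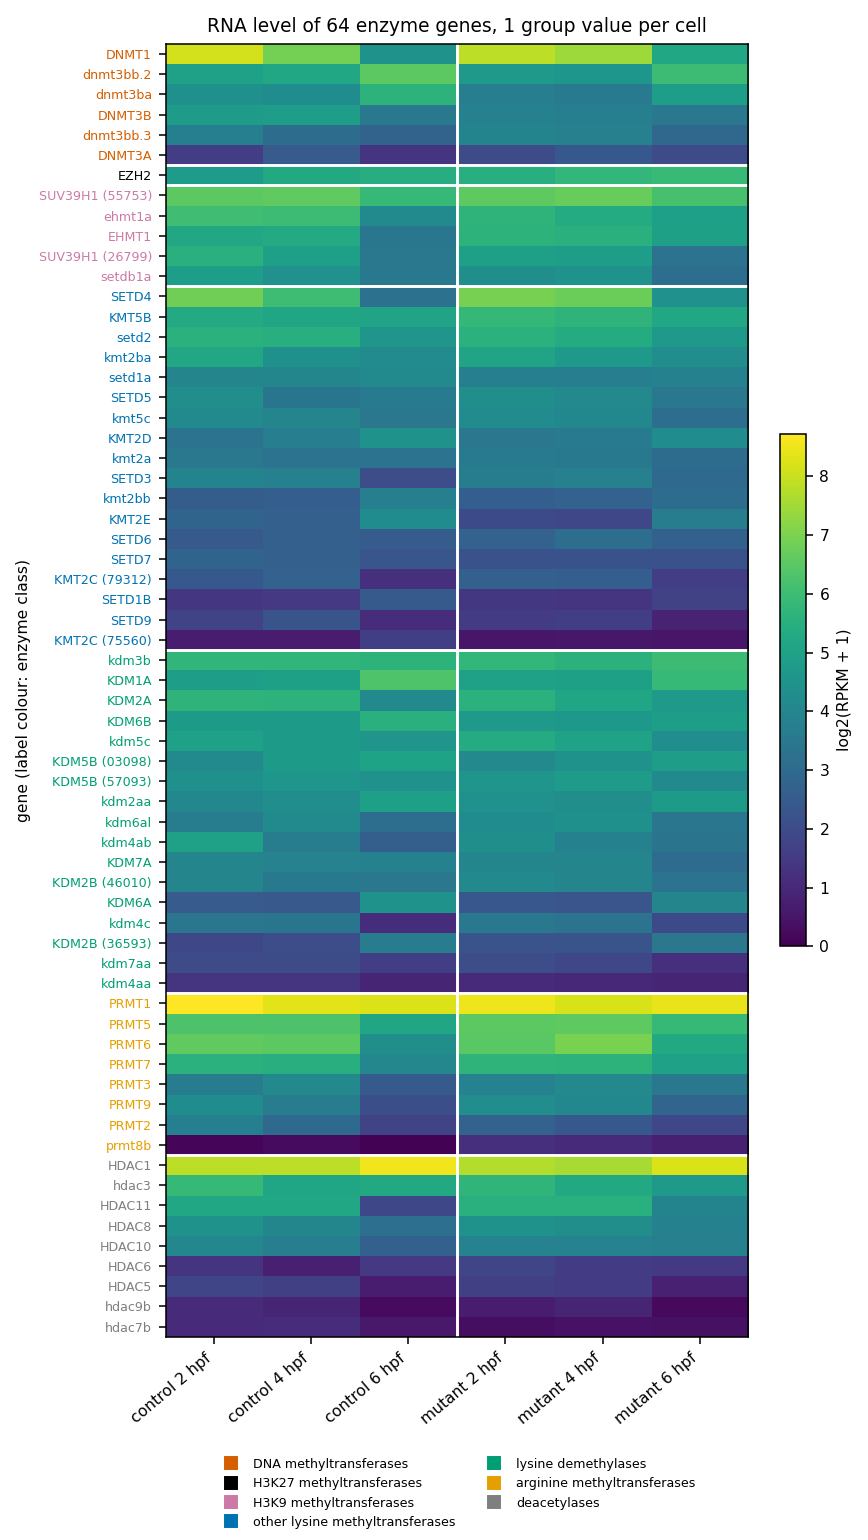
Level of each of the 64 genes as log2(RPKM + 1), 1 row per gene and 1 column per group, ordered by enzyme class (label colour). PRMT1, HDAC1 and DNMT1 were the highest at 2 hpf, and DNMT1 went from 278 to 21.2 in controls and from 231 to 36.6 in mutants by 6 hpf.

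A few genes made up much of the RNA of these enzymes. PRMT1 (ENSDARG00000010246), which places most asymmetric arginine methylation in vertebrate cells, stood at an RPKM of 421, 325 and 304 in controls at 2, 4 and 6 hpf and at 358, 292 and 341 in mutants. HDAC1 (ENSDARG00000015427), a deacetylase of the Sin3, NuRD and CoREST complexes, stood at 231, 230 and 373 in controls and at 208, 192 and 299 in mutants. These were among the 3 highest members in every table, and neither differed between genotypes by more than 0.32 log2 at any hour as deposited (HDAC1 by -0.75 at 6 hpf after trimmed-mean rescaling). DNMT1 was also among the 3 highest at 2 and 4 hpf. At 6 hpf its place was taken by dnmt3bb.2 in controls and by SUV39H1 (ENSDARG00000055753) in mutants.

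Between genotypes the members differed little in number of calls. At 2 hpf 1 member was higher in mutants and 1 lower, against 4.14% and 3.34% of all 17053 genes (7.48% either way). The higher one, prmt8b, met the minimum of RPKM 1 through mutant tables alone. At 4 hpf none was higher (3.79% of all genes) and 1 was lower (6.31%, and 10.1% either way). At 6 hpf 5 were higher (18.3%) and 1 lower (8.91%), so that 9.38% of members were past the threshold either way against 27.2% of all genes. The median difference of the members was 0.02, 0.03 and 0.02 at 2, 4 and 6 hpf, beside 0.01, 0.01 and 0.22 over all genes. At 6 hpf 32 members lay above 0 and 32 below. The 5 called higher at 6 hpf were HDAC11, EHMT1, SETD4, HDAC10 and PRMT3, and the 1 called lower was a KMT2C gene.

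At 2 hpf the split of 1 higher and 1 lower became 0 and 2 after trimmed-mean rescaling, with prmt8b at 0.99 and DNMT3B at -1.02. Of all genes 3.41% were then higher and 3.37% lower. The difference at 6 hpf depended more on how the tables were scaled. The median over all genes was 0.22 as deposited, -0.09 after trimmed-mean rescaling and 0.07 after quantile normalization. The members' split of 5 higher and 1 lower became 2 and 7 after trimmed-mean rescaling (13% and 17.5% of all genes). It became 2 and 3 after quantile normalization (14.9% and 13.5%). The 6 called genes kept their direction under both rescalings, and HDAC11, EHMT1 and KMT2C also stayed past 1 log2. KMT2C met the minimum of RPKM 1 only through controls at 6 hpf, where it was high, so its call is a description only.

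**Figure D2:**
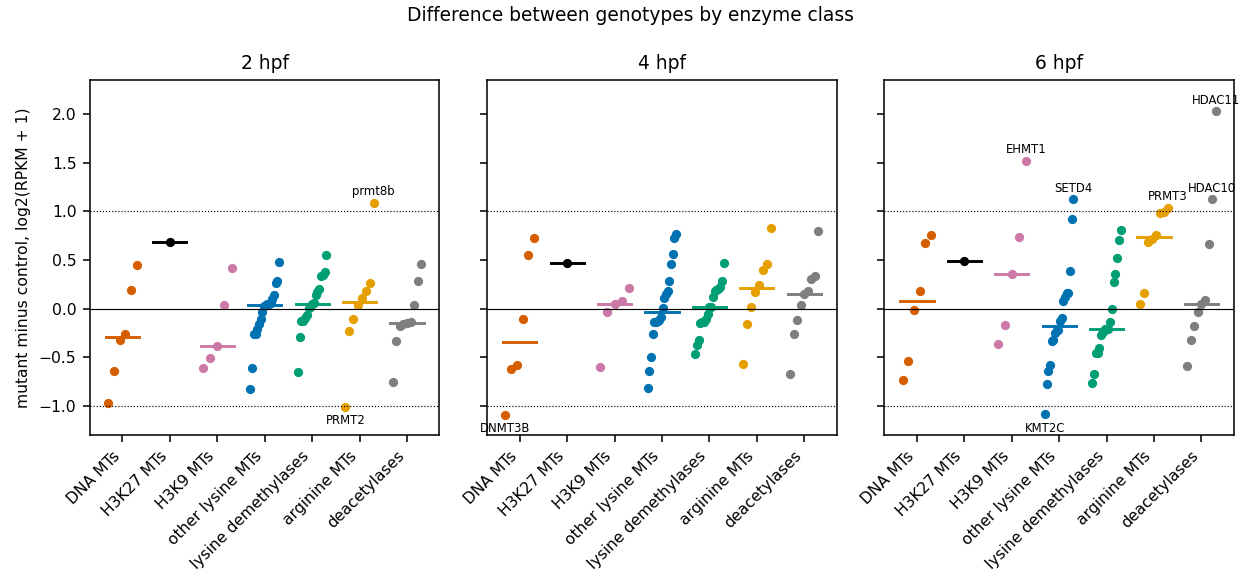
Difference between mutant and control in log2(RPKM + 1) at 2, 4 and 6 hpf for each of the 64 genes, grouped by enzyme class (MTs, methyltransferases), with the class median as a bar and dotted lines at a difference of 1. At 6 hpf the arginine methyltransferases lie above 0 with a median of 0.74 (0.50 after trimmed-mean rescaling, with 2 of 8 below 0), and the lysine demethylases have a median of -0.21. Of the arginine methyltransferases, prmt8b met the minimum of RPKM 1 through mutant tables alone.

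The DNA methyltransferases held the only member past the threshold at 4 hpf. This was DNMT3B (ENSDARG00000036791), a de novo methyltransferase. It stood at an RPKM of 26.7, 28.4 and 10.5 in controls at 2, 4 and 6 hpf and at 13.1, 12.7 and 10.3 in mutants. The mutant level was 49.1% of the control at 2 hpf and 44.9% at 4 hpf, differences of -0.97 and -1.10. At 6 hpf the values were alike as deposited (-0.02), and the difference was -0.42 after trimmed-mean rescaling.

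Other members of the DNMT3 family followed other courses. dnmt3ba (ENSDARG00000052402) stood at 19.7, 18 and 48.6 in controls and at 12.3, 11.4 and 28.7 in mutants. Its differences of -0.64, -0.62 and -0.74 made it the only member lower by at least 0.58 log2 (about 1.5-fold) at all 3 hours as deposited, where 1.84% of all genes were. KMT2E, at -0.827, -0.813 and -0.579, lay just short of this, and was past it at all 3 hours under both rescalings. At 6 hpf the difference of dnmt3ba was -1.17 after trimmed-mean rescaling, and that of dnmt3bb.2 was -0.97. dnmt3bb.2 (ENSDARG00000057830) stood at 31.0, 35.2 and 90.7 in controls and at 24.6, 23.2 and 62.0 in mutants, with differences of -0.32, -0.58 and -0.54. Both genes rose from 4 to 6 hpf in both genotypes, dnmt3ba by 1.38 in controls and 1.26 in mutants and dnmt3bb.2 by 1.34 and 1.38.

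dnmt3bb.3 (ENSDARG00000057863) was at 12.5, 7.41 and 5.83 in controls and at 14.4, 12.9 and 6.72 in mutants, a difference of 0.72 at 4 hpf. DNMT3A (ENSDARG00000005394) was low, at 2.02, 4.70 and 1.51 in controls and 3.11, 4.30 and 3.0 in mutants. None of the de novo genes that were lower in mutants at 2 hpf was higher there at 6 hpf, while dnmt3bb.3 and DNMT3A were above the control at 2 and 6 hpf (dnmt3bb.3 at -0.20 at 6 hpf after trimmed-mean rescaling).

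DNMT1 (ENSDARG00000030756) was a major egg RNA. It stood at an RPKM of 278, 117 and 21.2 in controls and at 231, 173 and 36.6 in mutants. The control level fell by 1.23 log2 from 2 to 4 hpf and then fell by 2.41 from 4 to 6 hpf, whereas the mutant value changed by -0.41 in the first interval and fell by 2.21 in the second. The mutant value was therefore 83.1% of the control at 2 hpf, 147% at 4 hpf and 173% at 6 hpf as deposited. The difference at 6 hpf was 0.76 log2 as deposited, 0.345 after trimmed-mean rescaling and 0.517 after quantile normalization.

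The balance between maintenance and de novo genes is a ratio within a table, which a constant scaling factor does not change, though quantile normalization can. DNMT1 made up 75.1% of the summed RPKM of the 6 DNA methyltransferases in controls at 2 hpf, 55.6% at 4 hpf and 11.9% at 6 hpf. In mutants the shares were 77.3%, 72.8% and 24.8%. The 5 DNMT3 genes together summed to 92.0, 93.8 and 157 in controls and to 67.6, 64.5 and 111 in mutants. The genotypes were close in this share at 2 hpf and apart at 4 and 6 hpf.

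**Figure D3:**
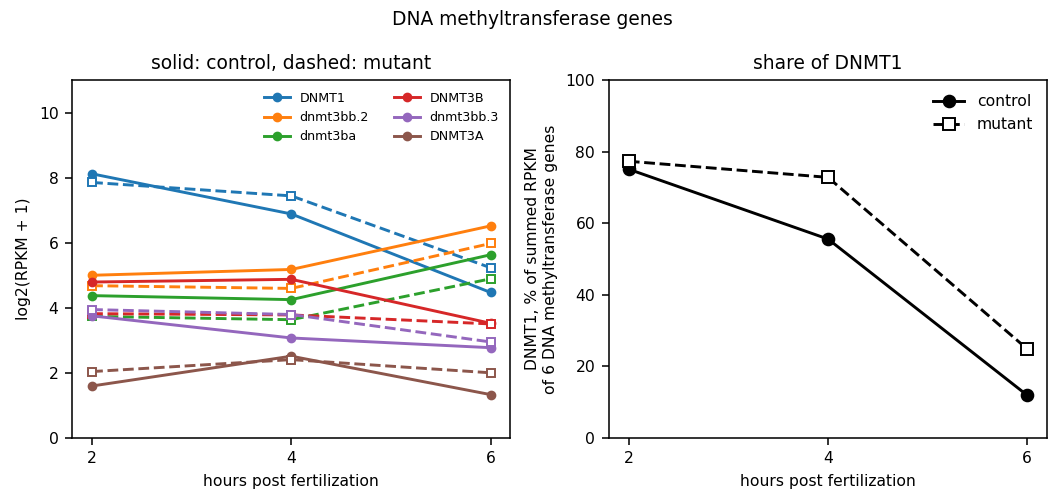
Left, log2(RPKM + 1) of the 6 DNA methyltransferase genes against hours post fertilization (solid, control; dashed, mutant). Right, DNMT1 as a percentage of their summed RPKM, which went from 75.1% to 11.9% in controls and from 77.3% to 24.8% in mutants.

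TET genes, whose products start the removal of DNA methylation, were almost absent. TET1, TET2 and tet3 reached at most 0.21, 0.0041 and 0.29 RPKM in any table, so none was kept. For tet3 the underlying read numbers could be recovered: the deeper and the shallower control library held 18 and 46 reads at 2 hpf, 20 and 20 at 4 hpf and 3 and 11 at 6 hpf. The mutant libraries held 49 and 67, 28 and 51, and 17 and 12 reads.

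The other 5 IDs under the minimum were DNMT3A (ENSDARG00000015566), ezh1, kdm6bb, setd1bb and PRMT8. Just below RPKM 1 lay DNMT3A at 0.41, ezh1 at 0.36, kdm6bb at 0.29 and tet3 at 0.29. Just above it lay hdac9b at 1.0, hdac7b at 1.16, prmt8b at 1.33 and kdm4aa at 1.54.

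EZH2 (ENSDARG00000010571), the catalytic subunit of Polycomb repressive complex 2, stood at 27.2, 38.3 and 42.0 in controls and at 44.2, 53.5 and 59.1 in mutants. The mutant value was above the control at each hour, with differences of 0.68, 0.47 and 0.48, none past the threshold. At 6 hpf the difference was 0.06 after trimmed-mean rescaling and 0.33 after quantile normalization.

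Among the 5 H3K9 methyltransferases only EHMT1 was past the threshold, at 6 hpf (27.2% of all genes). EHMT1 (ENSDARG00000026634), which pairs with EHMT2 in mammals, stood at 36.1, 38.8 and 9.86 in controls and at 48.4, 45.1 and 30.2 in mutants, a difference of 1.52 at 6 hpf. Its paralog ehmt1a (ENSDARG00000068157) stood at 65.1, 62.5 and 17.1 in controls and at 49.7, 40.7 and 29.1 in mutants, below the control at 2 and 4 hpf (-0.38 and -0.61) and above it at 6 hpf (0.74). Both fell from 4 to 6 hpf in controls, by 1.87 and 1.81, and changed by -0.56 and -0.47 in mutants.

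SUV39H1 genes, whose products trimethylate H3K9 in heterochromatin, differed in level. ENSDARG00000055753 stood at 91.0, 95.8 and 56.6 in controls and at 93.3, 101 and 72.4 in mutants. ENSDARG00000026799 was lower, at 45.9, 29.1 and 10.3 in controls and at 29.8, 28.3 and 9.06 in mutants. setdb1a, which silences repeats in mammals, stood at 27.7, 20.2 and 10.5 in controls and at 19.2, 20.9 and 7.96 in mutants. Their genotype differences lay between -0.61 and 0.35.

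The 18 other lysine methyltransferases included 2 calls between genotypes, both at 6 hpf (27.2% of all genes), and their median there was -0.18. After trimmed-mean rescaling the median was -0.50, with none higher and 3 lower, among them kmt2bb (-1.06) and SETD1B (-1.17). Of all genes 13% were then higher and 17.5% lower. After quantile normalization the median was -0.43, with none higher and 2 lower (14.9% and 13.5% of all genes). SETD4 (ENSDARG00000036592), a SET-domain methyltransferase and the highest of the class at 2 and 4 hpf, stood at 113, 63.3 and 8.79 in controls and at 121, 109 and 20.3 in mutants. Its difference went from 0.10 at 2 hpf to 0.77 and 1.12, and the last was 0.73 after trimmed-mean rescaling. KMT2C (ENSDARG00000075560), of the family that monomethylates H3K4 at enhancers, stood at 0.61, 0.61 and 2.08 in controls and at 0.44, 0.47 and 0.45 in mutants, -1.09 at 6 hpf on low values. It met the minimum of RPKM 1 through controls at 6 hpf alone, so its difference is a description only.

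H3K4 methyltransferase genes and their relatives followed different courses. The KMT2C gene ENSDARG00000079312 fell from 5.74 at 4 hpf to 1.29 at 6 hpf in controls, kmt2ba changed by -0.20 and kmt2a by -0.01. KMT2E (ENSDARG00000007523), an MLL-related SET-domain protein, stood at 5.97, 5.43 and 18 in controls and at 2.93, 2.66 and 11.7 in mutants. It lay below the control by 0.83, 0.81 and 0.579, at 49.0% of its value at 2 and at 4 hpf. From 4 to 6 hpf it rose by 1.57 in controls and 1.80 in mutants. SETD1B stood at 1.58, 1.72 and 4.48 in controls and at 1.63, 1.5 and 2.2 in mutants. It rose by 1.01 from 4 to 6 hpf in controls and changed by 0.37 in mutants. KMT2D and kmt2bb were below the control at 6 hpf by 0.22 and 0.64.

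Genes for other marks in this class lay within 1 log2 of the control at each hour. setd2, which trimethylates H3K36 on transcribed genes, stood at 47.0, 43.0 and 22.6 in controls and at 46.0, 40.4 and 24.7 in mutants. KMT5B, which methylates H4K20, stood at 39.0, 33.6 and 33.0 in controls and at 54.8, 50.0 and 36.9 in mutants, with differences of 0.48, 0.56 and 0.16. SETD5 was 0.73 above the control at 4 hpf and -0.10 at 6 hpf. SETD3, an actin methyltransferase in mammals, was 0.93 above it at 6 hpf.

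As deposited none of 17 lysine demethylases passed the threshold between genotypes at 2, 4 or 6 hpf (7.48%, 10.1% and 27.2% of all genes). At 6 hpf 12 lay below 0 and 5 above, with a median of -0.21 beside 0.22 over all genes. The median was -0.64 after trimmed-mean rescaling, where KDM6B (-1.10) and KDM7A (-1.19) passed the threshold (17.5% of all genes were lower). The highest single value was that of KDM1A (ENSDARG00000060679), the LSD1 demethylase of H3K4, in controls at 6 hpf, while kdm3b was higher in the other 5 tables. KDM1A stood at 27.7, 29.8 and 78.8 in controls and 30.7, 30.3 and 57.0 in mutants. It rose by 1.37 from 4 to 6 hpf in controls and changed by 0.89 in mutants.

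Both KDM6A and KDM6B, demethylases of H3K27, had higher values at 6 than at 4 hpf, whereas kdm6al went from 17.0 to 7.89 in controls and from 19.7 to 9.73 in mutants (control log2 change -1.02, or -0.26 after trimmed-mean rescaling). KDM6A (ENSDARG00000061759) stood at 4.71, 4.41 and 20.6 in controls and at 4.22, 3.91 and 14.7 in mutants, a rise of 2.00 and 1.68 from 4 to 6 hpf. KDM6B stood at 26.2, 25.7 and 44.9 in controls and at 24.9, 23.8 and 27.8 in mutants, -0.67 at 6 hpf. KDM7A, a demethylase of H3K9 and H3K27, was at 13.1 in controls and 7.31 in mutants at 6 hpf (-0.77), after 13.5 and 14.7 at 4 hpf.

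For the KDM4 demethylases of H3K9 and H3K36 the values at 6 hpf were the lower ones. kdm4c stood at 9.84, 9.40 and 1.21 in controls and at 10.2, 9.03 and 2.86 in mutants, and kdm4ab at 30.7, 11.6 and 5.22 and at 19.1, 13.2 and 9.13. Both lay above the control at 6 hpf, by 0.81 and 0.70. kdm4ab fell in controls in both intervals as deposited, by 1.33 and 1.02. The second of these changes was -0.29 after trimmed-mean rescaling and -0.45 after quantile normalization. In mutants kdm4ab changed by less than 1 log2 in each interval (-0.50 and -0.49). kdm3b, an H3K9 demethylase, was steadier, between 47.3 and 62.4 in all 6 tables.

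All 8 arginine methyltransferases had higher values in mutants at 6 hpf as deposited, with a median difference of 0.74 beside 0.22 over all genes. After trimmed-mean rescaling 6 of 8 did, with a median of 0.50, and after quantile normalization 7 of 8, with 0.58. These counts and medians include prmt8b, which met the minimum of RPKM 1 through mutant tables alone. Only PRMT3 was past the threshold at 6 hpf (27.2% of all genes). PRMT3 (ENSDARG00000019791), which methylates a ribosomal protein in mammals, stood at 11.9, 16.2 and 4.51 in controls and at 13.7, 16.3 and 10.3 in mutants, a difference of 1.04 (0.68 after trimmed-mean rescaling).

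PRMT6, which methylates histone H3 arginine, lay just short of the threshold. It stood at 95.4, 90.0 and 18.6 in controls and at 88.4, 124 and 38.2 in mutants. PRMT7 stood at 46.0, 43.1 and 15.3 in controls and at 49.5, 48.6 and 31.2 in mutants, 0.98 at 6 hpf. PRMT5, the main symmetric arginine methyltransferase, and PRMT9 differed by 0.68 and 0.76 at 6 hpf. These 4 genes lay within 0.46 log2 of the control at 2 and 4 hpf.

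A pair of PRMT genes differed at 2 hpf instead. PRMT2 (ENSDARG00000063212) stood at 12.5, 6.83 and 2.49 in controls and at 5.71, 4.28 and 2.60 in mutants, lower by 1.01 at 2 hpf and 0.57 at 4 hpf. prmt8b (ENSDARG00000045760), whose mammalian counterpart is known from neurons, stood at 0.09, 0.18 and 0.03 in controls and at 1.33, 1.10 and 0.70 in mutants, with differences of 1.09, 0.83 and 0.72. It met the minimum of RPKM 1 through mutant tables alone, so its difference is a description only.

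The deacetylases held the largest genotype difference among the 64 genes. HDAC11 (ENSDARG00000087573), which removes fatty acyl groups from lysine, stood at 36.7, 36.0 and 2.74 in controls and at 44.9, 45.6 and 14.3 in mutants, a difference of 2.03 at 6 hpf. It was 1.73 after trimmed-mean rescaling and 1.92 after quantile normalization. HDAC10 (ENSDARG00000086458), a polyamine deacetylase, stood at 15.4, 12.2 and 5.36 in controls and at 13.8, 13.7 and 12.9 in mutants. Its difference of 1.12 was 0.76 and 0.90 under the rescalings.

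Of the other class I deacetylases, hdac3 and HDAC8 were not past the threshold as deposited. hdac3, which works in nuclear receptor corepressor complexes, stood at 56.1, 33.9 and 38.6 in controls and at 51.0, 38.6 and 25.2 in mutants, -0.59 at 6 hpf (-1.02 after trimmed-mean rescaling). HDAC8 stood at 20.8, 15.0 and 8.08 in controls and at 21.3, 18.7 and 13.4 in mutants, 0.67 at 6 hpf. HDAC5, HDAC6, hdac7b and hdac9b stayed at or under an RPKM of 2.53 in all tables.

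Over time, most movement of these genes came between 4 and 6 hpf. From 2 to 4 hpf none rose in controls (8.79% of all genes) and 2 fell, DNMT1 and kdm4ab (2.84%, and 11.6% either way). In mutants none rose (3.21%) or fell (0.264%, and 3.47% either way). From 4 to 6 hpf 8 rose in controls (17.3%) and 22 fell (35.1%, and 52.5% either way). In mutants 5 rose (12.3%) and 9 fell (18.9%, and 31.2% either way). The median change of the members in that interval was -0.38 in controls and -0.46 in mutants, beside -0.52 and -0.33 over all genes.

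Scaling weighs on this interval. The median of all genes in controls was -0.52 as deposited, 0.07 after trimmed-mean rescaling and -0.21 after quantile normalization. The members' 8 rises and 22 falls in controls became 15 and 9 after trimmed-mean rescaling (29.3% and 20.5% of all genes). They became 13 and 11 after quantile normalization (23.3% and 26%). In mutants the 5 and 9 became 8 and 5 (16.9% and 6.8% of all genes), and 7 and 6 (13.5% and 11.6%). All 30 calls in controls and all 14 in mutants kept their direction under both. Of the 30, 17 stayed past the threshold after trimmed-mean rescaling and 19 after quantile normalization, with 7 and 5 new calls. Of the 14, 10 and 11 stayed, with 3 and 2 new calls.

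By class in controls, 6 of 8 arginine methyltransferases and 3 of 5 H3K9 methyltransferases fell from 4 to 6 hpf. None of either class rose. After trimmed-mean rescaling 1 and 2 of these genes fell, and after quantile normalization 3 and 2. Over all genes 35.1% fell and 17.3% rose as deposited, 20.5% and 29.3% after trimmed-mean rescaling and 26% and 23.3% after quantile normalization. Among the demethylases 3 rose and 4 fell, which became 6 and 1 after trimmed-mean rescaling and 5 and 1 after quantile normalization. Among the 18 other lysine methyltransferases 3 rose and 4 fell (5 and 3 under both), and among the DNA methyltransferases 2 rose and 3 fell (2 and 1 under both). Of the deacetylases none rose and 2 fell, which became 2 and 1 after trimmed-mean rescaling and 1 and 1 after quantile normalization. HDAC1 was at 0.69 as deposited and at 1.52 and 0.23 under these rescalings. The genes that rose in controls were KDM6A, the KDM2B gene ENSDARG00000036593, KMT2E, dnmt3ba, KDM1A, dnmt3bb.2, kmt2bb and SETD1B.

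**Figure D4:**
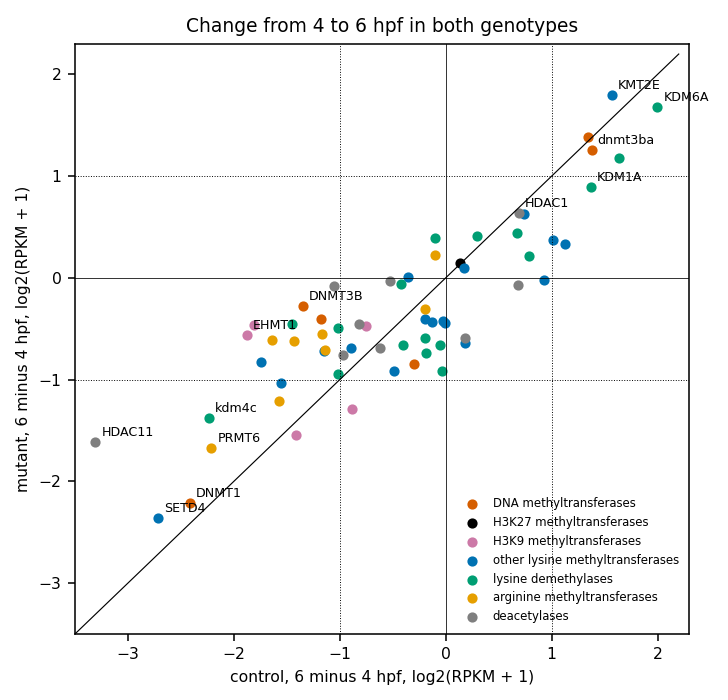
Change from 4 to 6 hpf in log2(RPKM + 1) in mutants (vertical) against controls (horizontal) for the 64 genes, coloured by class, with the line of equal change and dotted lines at -1 and 1. HDAC11, at -3.31 in controls and -1.61 in mutants, lies far above the line, and KDM6A, at 2.00 and 1.68, lies near it.

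Of the 22 members that fell in controls, all had a change below 0 in mutants and 8 fell, and their median was -1.50 in controls and -0.71 in mutants. Of all 5994 genes that fell in controls, 5785 were below 0 in mutants and 2658 fell, with medians of -1.69 and -0.93. Both sets were picked on the control change, so nothing is read from the smaller median in mutants. Under either rescaling 20 of the 22 were below 0 in mutants, DNMT3B being at 0.14 and HDAC10 at 0.34 after trimmed-mean rescaling. Of the 8 that rose in controls, all were above 0 in mutants and 5 rose, with medians of 1.38 and 1.22, beside 2720 above 0 and 1596 rising of 2952 among all genes. The change was smaller in size in mutants for 41 of 64 members (64.1%), beside 71.1% of all genes, and for 51 and 48 after trimmed-mean rescaling and quantile normalization. Across the 64 genes the 2 changes had a Pearson r of 0.854 and a Spearman rho of 0.768, beside 0.808 and 0.800 over all genes. All points share the same 4 tables, and genes are not replicates.

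Stage markers moved in the same interval. The summed egg RNAs went from 1536 to 68.5 in controls and from 1412 to 568 in mutants, and the gastrula genes from 21.3 to 453 and from 12.2 to 95.3. Their part in the differences between genotypes at 6 hpf was not tested.

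Many of these genes are present as a pair of paralogs. Of 10 such pairs, 5 moved in opposite directions between 2 and 6 hpf in controls as deposited (KDM2A, KDM2B, KDM6A, KMT2B and KMT2C), and the same 5 and KDM5B in mutants. Trimmed-mean rescaling turned the control change of the lower-going KDM2B and kdm6al to 0.20 and 0.16, and quantile normalization that of KDM2B to 0.06. In mutants the KMT2C gene ENSDARG00000075560 changed by 0.01, or by -0.23 after quantile normalization, and the KDM5B gene ENSDARG00000057093 by -0.36, or by 0.01 after trimmed-mean rescaling. The share of each gene in its pair, which a constant scaling factor does not change, is therefore given.

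kdm2aa made up 24.0% of the KDM2A pair in controls at 2 hpf and 63.7% at 6 hpf, and 30.8% and 50.7% in mutants. KDM2A enzymes demethylate H3K36. The KDM2B gene ENSDARG00000036593 went from 15.4% to 54.3% in controls and from 17.7% to 52.4% in mutants. In mammals KDM2B brings a Polycomb complex to CpG islands.

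KDM6A went from 28.4% to 72.3% of its pair with kdm6al in controls and from 19.2% to 60.2% in mutants. kmt2bb went from 12% to 41.5% in controls and from 13.2% to 29.2% in mutants. The KMT2C gene ENSDARG00000075560 went from 12.5% to 61.7% in controls and from 7.55% to 18.5% in mutants, on a sum of 3.37 and 2.43 RPKM at 6 hpf. This KMT2C gene met the minimum of RPKM 1 through controls at 6 hpf alone. That these shares were larger at 6 than at 2 hpf follows from the opposite directions by which the pairs are described. At 6 hpf they were larger in controls than in mutants in all 5 pairs. The pairs were picked on the control course, which favours this, so nothing is read from it. Among the remaining pairs kdm7aa was at 13.6% in controls and 15.2% in mutants at 6 hpf. The KDM5B gene ENSDARG00000003098 was at 61.6% and 61.7%, and kdm4aa at 14.5% and 8.74%. The EHMT1 and SUV39H1 pairs follow.

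In the EHMT1 and SUV39H1 pairs both genes had lower values at 6 than at 2 hpf in both genotypes as deposited (the larger SUV39H1 gene at 0.08 in controls and 0.02 in mutants after trimmed-mean rescaling). ehmt1a made up 64.3% of the pair at 2 hpf and 63.4% at 6 hpf, against 50.6% and 49.1% in mutants. The smaller SUV39H1 gene went from 33.5% to 15.4% of its pair in controls and from 24.2% to 11.1% in mutants.

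**Figure D5:**
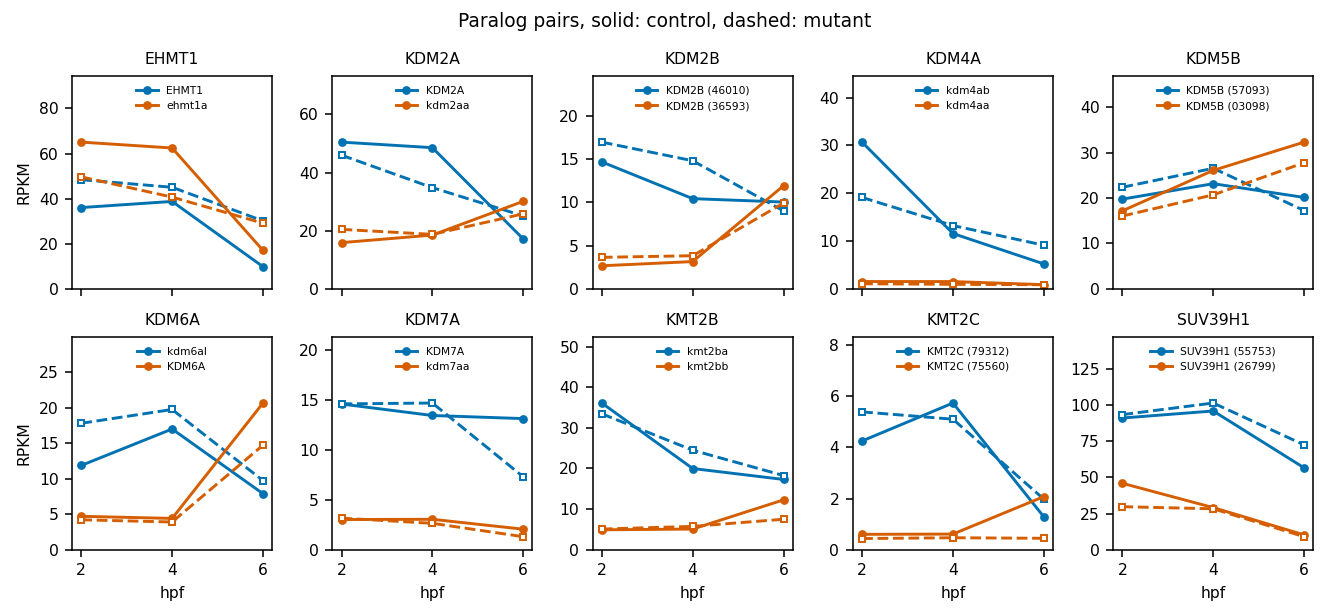
RPKM of both genes of 10 paralog pairs at 2, 4 and 6 hpf (solid, control; dashed, mutant; numbers in the legends are the last digits of the gene ID). In the KDM2A, KDM2B, KDM5B, KDM6A and KMT2C panels the orange gene passes the blue one by 6 hpf in controls. In the KMT2C panel the orange gene stays below in mutants.

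Partner genes of these enzymes were taken as lists by function. Their medians at 6 hpf are as deposited, where the median over all genes was 0.22. Of 24 Polycomb partners kept, 3 were higher in mutants at 6 hpf and 1 lower, with a median of 0.30, and none was past the threshold at 2 or 4 hpf. The higher ones were phc3 and the BMI1 genes, subunits of Polycomb complex 1. ENSDARG00000006010 stood at 92.7, 65.4 and 2.96 in controls and at 86.1, 87.8 and 26.9 in mutants, a difference of 2.82. RBBP4, a histone chaperone of Polycomb and deacetylase complexes, was lower at 6 hpf, at 67.1 against 146.

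The 11 partners of the DNA methylation enzymes had a median of -0.40 at 6 hpf. At that hour cxxc5b, a CXXC zinc finger gene, was lower in mutants (0.25 against 4.51). The RPKM minimum was met by cxxc5b through controls at 6 hpf alone, so its difference is a description only. Of 14 COMPASS and trithorax partners of the H3K4 enzymes psip1b was higher, and pagr1 and ASH1L were lower, with a median of -0.22. Neither list had a call at 2 or 4 hpf.

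Of 18 further histone methyltransferases and demethylases, SMYD3 and NSD1 were higher at 6 hpf, with a median of -0.31. At 4 hpf 1 of the 18, riox1, was higher (1.12), as were 3.79% of all genes. The 17 deacetylase partners had a median of 0.05 at 6 hpf, where tbl1xr1a was lower, and no call at 2 or 4 hpf. RCOR1, a corepressor that joins KDM1A to HDAC1, was higher at 6 hpf and stood at 197, 156 and 24.3 in controls and at 173, 149 and 63.2 in mutants. In each of the 5 lists the share past the threshold at 6 hpf was below the 27.2% of all genes.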

How the data were processed

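The values are RPKM, which the authors deposited as 6 tables of group values, 1 per genotype and hour. Per the labels' protocols RNA was extracted with TRIzol, purified on Dynabeads and made into libraries with the KAPA Stranded mRNA-Seq kit. Cutadapt 1.13, Trimmomatic 0.36, HISAT2 2.0.5, SAMtools 1.9 and build Zv9 are listed, with no role stated, per the submitters' processing notes. How reads were counted, with which annotation and strand setting, no source used here says.

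Genes needed an RPKM of at least 1 in 1 table. Differences of log2(RPKM + 1) were computed with Python 3.11.15, numpy 2.4.6 and pandas 2.3.3. No per-sample test could be made, so no error or p-value is given. Values in all tables are given for members past 1 log2 between genotypes with RPKM of at least 5, the highest member of each class and every dnmt, ezh, suv39h and ehmt gene; others named (KMT2E, KDM6A, SETD1B and the like) were chosen after their values were seen. The members and lists were chosen with earlier results of these data known. Symbols came from a name table that covers 21939 of the 33737 IDs. No sequences or coordinates are given, and a few partner genes are not reported here.

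Low values fall on steps set by the 2 libraries of a table, as in a plain mean of both. Reads were recovered for 8267 genes, against 12 once each value had been shifted randomly by 0.5% or less, and on simulated tables of 33737 genes 99.3% of read values came back. This gave relative depths. For genes with 20 to 150 reads the log2 ratio between the libraries of a group spread by 0.787 to 1.14 (median absolute deviation, scaled to an SD), where counting error gives 0.453 to 0.503. None of the 64 members could be recovered, so their spread between replicates is unknown.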

Additional observations from a re-analysis of the deposited data

How the results depend on the processing

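The 7 comparisons gave 49 recomputed counts of members past the threshold, and 39 stayed within 1.5 times the reported count. Of the 39, 7 belong to the setting with no RPKM minimum. The 8 IDs it adds are under RPKM 1 in all tables, so none could pass 1 log2 and these counts had to repeat. With a pseudocount of 0.1 the count was 5 at 2 hpf, 5 at 4 hpf and 11 at 6 hpf between genotypes. Of all genes 9.16% were higher and 6.87% lower at 2 hpf, 7.69% and 13.3% at 4 hpf and 30.4% and 13.4% at 6 hpf. For controls from 2 to 4 hpf the count was 4 (16.3% higher and 4.5% lower over all genes). With a minimum of RPKM 5 the count was 1 at 2 hpf (4.25% higher and 3.18% lower over all genes with that minimum). With a threshold of 0.58 log2 the count was 10, 12 and 24 between genotypes at 2, 4 and 6 hpf. Of all genes 12% were higher and 8.8% lower at 2 hpf, 13.3% and 13.8% at 4 hpf and 33.2% and 18.3% at 6 hpf. The count was 11 for controls from 2 to 4 hpf (16.9% higher and 9.46% lower over all genes). It was 35 for mutants from 4 to 6 hpf (18.7% and 37.7%). The totals stayed within 1.5 times the reported count under both rescalings. The split into higher and lower members changed, as given with the results, because some called genes no longer passed the threshold and others newly passed it. Each member called as deposited kept its direction. Of 108 recomputed values of single genes, 93 kept their side of the threshold, 7 fell below it and 8 passed it. Of these, 23 of the 93 and 4 of the 8 belong to the threshold of 0.58 log2. There the values are unchanged and only the threshold is lower, so none could fall below it or change sign. No value past the threshold changed sign, whereas values near 0 did under both rescalings, such as PRMT3 at 4 hpf (0.01 to -0.04 and -0.06) and PRMT2 at 6 hpf (0.04 to -0.29 and -0.25). PRMT3, SETD4 and HDAC10 fell below the threshold at 6 hpf under both rescalings, and prmt8b at 2 hpf (0.99) under trimmed-mean rescaling. No paired analysis was possible because each group has 1 value, and for the same reason leaving out a replicate was not run.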

Other observations

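Genes of the cycle of the methyl donor S-adenosylmethionine were set beside all genes, as deposited only. The 10 genes of this cycle kept had a median of 0.65 at 6 hpf beside 0.22 over all genes. At 6 hpf 2 were higher in mutants and 1 lower, where 18.3% and 8.91% of all genes were (27.2% either way). None was past the threshold at 2 or 4 hpf. MTRR, which reactivates methionine synthase, was higher in mutants at 6 hpf. It stood at 12.8, 12.1 and 1.07 in controls at 2, 4 and 6 hpf and at 14.2, 13.7 and 6.62 in mutants. BHMT, which remethylates homocysteine with betaine, went the other way: it stood at 0.72, 0.79 and 63.8 in controls and at 0.41, 0.54 and 2.16 in mutants, a difference of -4.36 at 6 hpf.

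Among 18 histone acetyltransferase genes and their partners, 2 were higher in mutants at 2 hpf (4.14% of all genes were), 1 was higher at 4 hpf (3.79%), and 1 was higher and 1 lower at 6 hpf (27.2% either way), with a median of -0.08 at 6 hpf. kat7a, an acetyltransferase of the MYST family, was higher at all 3 hours, at 5.45, 5.13 and 1.44 in controls and 20.3, 14.2 and 5.72 in mutants. KAT14 stood at 3.23, 5.25 and 17.7 in controls and at 8.12, 5.93 and 5.28 in mutants, a difference of 1.11 at 2 hpf and -1.57 at 6 hpf.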
